A study of Mus musculus with 24 samples.

Results

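Opposite-strand transcripts are noncoding RNAs named after a coding gene whose strand they oppose, such as *Hoxa11os* beside *Hoxa11*. They were taken from the gene table of a calibrated RNA-seq (cRNA-seq) experiment as rows with a noncoding RefSeq record (NR_) whose symbol ends in "os" or in "os" and 1 digit, with the most abundant row kept for each symbol. This gave 126 rows and 125 symbols of the 20633 transcripts in the table. Of these, 124 had a coding gene of the same stem in the table (119 distinct partners), and in every one of the 124 pairs the 2 transcripts lay on opposite strands of 1 chromosome. The remaining symbol, *Minos1*, matches the spelling but is the former name of a mitochondrial inner membrane gene and has no partner.

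The experiment used 2 mouse embryonic stem cell (ESC) lines of strain E14, each a single clone with tamoxifen-inducible Cre at *Rosa26* (Rosa26::ERT2-Cre), untreated or after 72 h with 800 nM 4-hydroxytamoxifen (OHT), with 3 biological replicates in each of the 4 conditions. PRC1CKO cells (Ring1a-/-; Ring1bfl/fl, clone B9) lack RING1A with or without OHT and lose RING1B after it. PRC1CPM cells (clone 41) carry the I50A and D53K changes in RING1A with or without OHT, and OHT replaces wild-type RING1B by a form with I53A and D56K that has no catalytic activity. The untreated cells of both lines therefore depend on RING1B alone for PRC1 catalysis, and wild-type cells or cells given OHT without an inducible allele were not analysed here. Total RNA depleted of rRNA was read in the 12 libraries with *Drosophila* SG4 cells mixed in before extraction, and counts were scaled by the fly reads.

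PRC1, one of the Polycomb complexes, is built on the E3 ligases RING1A or RING1B and places ubiquitin on lysine 119 of histone H2A (H2AK119ub1) at CpG islands of silent developmental genes. Many CpG islands give rise to transcripts in both directions, and opposite-strand RNAs of developmental regulators often start at the same island as their coding neighbour. The coding partners include homeobox, forkhead and LIM-domain transcription factors, which are well-known groups of Polycomb targets in ESCs. They also include some imprinted genes and germline genes.

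Start-site sequences, chosen after the values were seen, are shown for the members with the largest changes in PRC1CKO cells (*Hoxa11os*, *Dlx6os1* and *Six3os1*), for *Wt1os* and *Lhx1os* as called members that share a start region with the partner, and for *Crxos* as a called member with few CG dinucleotides. Each is the 300-base RefSeq promoter window on GRCm38.p6, 250 bases before to 50 after the start, read 5′ to 3′ on the strand of the gene, with each CG dinucleotide in capitals (CG reads the same on both strands). *Lhx1os* (chr11:84525410-84525709, plus strand) and *Lhx1* (chr11:84525485-84525784, minus strand) start 126 bases apart, and their windows share 225 bases in opposite orientation. *Hoxa11os* (chr6:52244993-52245292, plus) and *Hoxa11* (chr6:52245761-52246060, minus) start 567 bases apart with overlapping gene bodies. The *Wt1os* window (chr2:105126461-105126760, minus) contains the start of *Wt1*, 19 bases from its own. *Six3os1* (chr17:85618347-85618646, minus), *Dlx6os1* (chr6:6869484-6869783, minus) and *Crxos* (chr7:15882367-15882666, plus) start 2438, 6199 and 2662 bases from the start of the partner.
Lhx1os: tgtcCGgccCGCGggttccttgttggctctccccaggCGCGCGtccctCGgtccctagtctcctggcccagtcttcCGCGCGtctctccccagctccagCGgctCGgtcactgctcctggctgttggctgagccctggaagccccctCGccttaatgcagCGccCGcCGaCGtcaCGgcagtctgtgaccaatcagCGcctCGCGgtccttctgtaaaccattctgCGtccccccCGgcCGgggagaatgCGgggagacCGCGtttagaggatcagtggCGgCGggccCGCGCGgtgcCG
Lhx1: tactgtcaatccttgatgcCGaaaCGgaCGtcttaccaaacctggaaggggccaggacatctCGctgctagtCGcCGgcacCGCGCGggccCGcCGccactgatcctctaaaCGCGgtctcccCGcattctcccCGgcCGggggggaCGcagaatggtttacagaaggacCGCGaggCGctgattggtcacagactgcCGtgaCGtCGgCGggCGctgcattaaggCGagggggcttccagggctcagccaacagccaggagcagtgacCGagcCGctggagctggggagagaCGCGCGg
Hoxa11os: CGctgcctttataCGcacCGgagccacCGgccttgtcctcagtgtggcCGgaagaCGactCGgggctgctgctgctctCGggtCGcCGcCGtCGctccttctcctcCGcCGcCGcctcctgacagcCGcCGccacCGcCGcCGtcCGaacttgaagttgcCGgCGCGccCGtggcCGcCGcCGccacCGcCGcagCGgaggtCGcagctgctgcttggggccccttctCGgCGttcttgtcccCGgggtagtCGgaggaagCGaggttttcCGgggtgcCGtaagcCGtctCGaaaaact
Hoxa11: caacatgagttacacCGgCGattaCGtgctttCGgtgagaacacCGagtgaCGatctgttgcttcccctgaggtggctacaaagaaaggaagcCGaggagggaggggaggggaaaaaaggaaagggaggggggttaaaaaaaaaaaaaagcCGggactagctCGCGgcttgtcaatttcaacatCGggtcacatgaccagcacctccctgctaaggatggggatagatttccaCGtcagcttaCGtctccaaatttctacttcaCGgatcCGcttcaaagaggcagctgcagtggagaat
Six3os1: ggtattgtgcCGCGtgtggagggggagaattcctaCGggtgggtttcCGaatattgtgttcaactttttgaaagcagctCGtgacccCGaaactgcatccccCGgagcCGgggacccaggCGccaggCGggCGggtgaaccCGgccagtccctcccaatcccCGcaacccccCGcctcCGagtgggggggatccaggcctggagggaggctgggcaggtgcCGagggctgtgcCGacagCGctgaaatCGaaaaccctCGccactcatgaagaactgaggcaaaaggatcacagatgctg
Wt1os: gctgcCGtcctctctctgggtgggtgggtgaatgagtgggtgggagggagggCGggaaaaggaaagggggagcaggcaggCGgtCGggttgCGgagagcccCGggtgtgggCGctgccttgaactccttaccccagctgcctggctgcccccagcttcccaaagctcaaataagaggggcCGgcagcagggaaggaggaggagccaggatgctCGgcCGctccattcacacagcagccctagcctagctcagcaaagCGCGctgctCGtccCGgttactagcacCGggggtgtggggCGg
Dlx6os1: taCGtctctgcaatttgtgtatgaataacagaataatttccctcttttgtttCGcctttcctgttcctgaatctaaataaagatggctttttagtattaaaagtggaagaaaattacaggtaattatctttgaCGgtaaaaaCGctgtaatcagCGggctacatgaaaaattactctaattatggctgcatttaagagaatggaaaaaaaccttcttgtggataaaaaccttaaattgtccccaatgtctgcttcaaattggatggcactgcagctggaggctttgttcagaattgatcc
Crxos: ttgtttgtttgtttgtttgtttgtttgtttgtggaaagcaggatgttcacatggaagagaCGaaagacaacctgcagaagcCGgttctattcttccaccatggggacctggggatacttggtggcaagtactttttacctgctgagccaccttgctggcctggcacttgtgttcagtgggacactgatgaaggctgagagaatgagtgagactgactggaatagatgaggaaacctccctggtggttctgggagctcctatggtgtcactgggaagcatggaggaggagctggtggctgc

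*Hoxa11os* has 41 CG dinucleotides in its window, and 3.46% of the 32817 RefSeq promoter windows of this length hold as many. *Lhx1os* has 33 (8.57%) and *Lhx1* 31 (10.6%). *Six3os1* has 20 (26.5%), *Wt1os* 16 (33%) and *Hoxa11* 15 (34.6%). The windows of *Dlx6os1* with 5 (61.9%) and *Crxos* with 2 (85.9%) are poor in CG.

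Reads on genes ranged from 16755349 to 22893245 in untreated and 21042163 to 24439897 in OHT-treated PRC1CKO libraries, and from 14668159 to 20241765 and 19934821 to 27016156 in PRC1CPM libraries. *Rnf2*, which encodes RING1B, had 1756, 1436 and 1385 normalised reads in untreated and 1489, 1565 and 1585 in OHT-treated PRC1CKO libraries, and 1850, 1659 and 1578 and 1724, 1295 and 1513 in PRC1CPM libraries. These groups overlap, and a count over the whole gene body does not check the removal or exchange of single exons. Of 8 ESC markers listed, *Dppa5a* was not in the gene table. The others (*Pou5f1*, *Nanog*, *Sox2*, *Zfp42*, *Esrrb*, *Klf4* and *Tdgf1*) were all expressed in every condition. Their sums were 84310, 53954 and 60698 in untreated and 50410, 48382 and 56110 in OHT-treated PRC1CKO libraries. In PRC1CPM libraries they were 70943, 49028 and 62659 untreated and 65912, 37171 and 64521 after OHT, and the groups overlapped in both lines. *Tdgf1* was the most abundant of the list per kb, and *Sox2* was the one called lower, in PRC1CKO cells (-0.89 ± 0.20, adjusted p = 0.00051). Primitive endoderm markers moved with OHT, with 4 of 6 called higher in PRC1CKO and 6 of 6 in PRC1CPM cells. Their summed level was 1235, 722 and 434 in untreated and 2975, 2301 and 2208 in OHT-treated PRC1CKO libraries, and 583, 577 and 468 and 1646, 1120 and 1436 in PRC1CPM libraries, and *Gata6* was their most abundant gene per kb. Of 5 trophoblast markers, 3 were called higher in PRC1CKO and 2 in PRC1CPM cells, with *Elf5* too low to test and *Eomes* the most abundant. Their sums were 490.1, 204 and 179 in untreated and 811, 501 and 527 in OHT-treated PRC1CKO libraries, and 384, 249 and 203 and 804, 470.1 and 449 in PRC1CPM libraries. Of 5 fibroblast markers, *Thy1* was called higher in PRC1CKO cells and none in PRC1CPM cells, *Dcn* was too low to test, and *Col1a1* was the most abundant. Their sums were 5915, 2182 and 3040 in untreated and 4503, 3645 and 3996 in OHT-treated PRC1CKO libraries, and 15036, 3934 and 4969 and 15833, 4961 and 6818 in PRC1CPM libraries, with replicate 1 the highest of every condition. The part of other cell types in the changes below was not tested. In bulk RNA, more cells of a type and more RNA per cell cannot be told apart.

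The first question was how the opposite-strand transcripts responded when PRC1 was removed or inactivated. Of the 125 members, 68 had at least 10 reads in at least 3 libraries and were tested in a limma fit across 16940 transcripts. A transcript was called at an adjusted p under 0.05 with a fold change above 1.5. In PRC1CKO cells 18 members were higher and 1 lower after OHT, where 16.5% of all transcripts tested were called higher and 3.09% lower. In PRC1CPM cells 15 were higher and none lower, beside 13.1% and 1.4% of all transcripts. The 18 and 15 are 26.5% and 22.1% of the members tested. The count of 0 in PRC1CPM cells was the same by limma, edgeR and DESeq2, and 5 members had an unadjusted p under 0.05 for a decrease there. The matching share of all transcripts is not given here, so the 5 cannot be read as many or few. The filter favours members that are high after OHT, and 19 of the 68 (27.9%), 10 of them among the 19 called higher in either line, would not have passed on the untreated libraries alone, against 5.51% of all transcripts tested. With TMM scaling, which sets the median change of all transcripts from 0.12 to -0.0019, 18 members were higher and 4 lower in PRC1CKO cells, and 17 and 2 in PRC1CPM cells. The shares of all transcripts given above are from scaling by the fly reads and not from TMM.

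Over the 68 tested members the log2 change had a median of 0.18 in PRC1CKO and 0.16 in PRC1CPM cells, beside 0.12 and 0.10 over all transcripts tested. The medians were the same with the members that had no untreated read set at their lower bound. Those members lie far above the median either way, so this could not have moved it. With 1 library left out the median of the members ranged from 0.043 (PRC1CKO_UNT replicate 3) to 0.38 (PRC1CKO_UNT replicate 1) in PRC1CKO cells and from -0.014 (PRC1CPM_OHT replicate 1) to 0.38 (PRC1CPM_UNT replicate 1) in PRC1CPM cells. TMM gave 0.068 and 0.088. Scaling that omits the gDNA-seq correction gave 0.033 for PRC1CKO cells and 0.44 for PRC1CPM cells, beside -0.037 and 0.39 over all transcripts. Of the coding partners, 113 of 119 were tested, and 37 were higher and 3 lower in PRC1CKO cells (32.7% and 2.65%) and 31 higher and 1 lower in PRC1CPM cells (27.4% and 0.885%). Of 959 other noncoding rows tested, 109 (11.4%) were higher and 56 (5.84%) lower in PRC1CKO cells, and 84 (8.76%) and 29 (3.02%) in PRC1CPM cells. Of 9 tested noncoding rows with other antisense or overlapping names (ending in "as", "ot" or "at"), 1 was higher in each line and 1 lower in PRC1CKO cells. Shares of such groups are descriptions, since members of a group are not replicates.

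Members are described by the kind of coding partner, a grouping made after their values were seen. Among the 12 with the largest change in PRC1CKO cells, *Hoxa11os*, *Dlx6os1*, *Six3os1*, *Nkx2-2os*, *Vax2os* and *Emx2os* lie beside homeobox genes. Beside other homeobox genes, *Lhx1os* was called higher in both lines and *Crxos* in PRC1CKO cells, *Pax6os1*, *Otx2os1* and *Zfhx2os* were called in neither line, and *Msx1os*, *Hoxd3os1* and *Dlx6os2* were too low to test. *Hoxa11os* (chr6:52245243-52249769, plus strand, 5 exons), beside the limb and reproductive tract regulator *Hoxa11*, had 2.98, 0 and 1.69 in the untreated libraries and 175, 147 and 158 after OHT treatment of PRC1CKO cells, and 0, 0 and 0 in the untreated libraries and 65.6, 27.1 and 39.4 after OHT treatment of PRC1CPM cells (normalised reads, as below). All OHT libraries lay above all untreated ones. The log2 fold change was 6.19 ± 0.59, adjusted p = 4.7e-12 in PRC1CKO cells (limma, ± SE, Benjamini-Hochberg, as below). In PRC1CPM cells, with no read in any untreated library, *Hoxa11os* was at least 36.9-fold higher than the floor of 3 reads over the untreated group (adjusted p = 6.9e-10). *Hoxa11* itself went from 0, 0 and 0 to 120.2, 65.7 and 96.8 in PRC1CKO cells (at least 99.3-fold higher, same floor, adjusted p = 1.4e-11) and from 2.56, 0 and 2.71 to 20.3, 10.8 and 17.5 in PRC1CPM cells (log2 2.82 ± 0.65, adjusted p = 0.0011). *Dlx6os1* (chr6:6820546-6869533, minus strand, 2 exons), whose body contains that of the forebrain and jaw regulator *Dlx6*, had 0, 0 and 1.69 in the untreated libraries and 95.8, 59.2 and 56.7 after OHT treatment of PRC1CKO cells. That is a ratio of 111-fold (95% exact interval 30.4 to 923, counting error only) over 2 untreated reads, with an adjusted p of 5.9e-10. In PRC1CPM cells it had 7.67, 1.88 and 0 in the untreated libraries and 46.3, 35.6 and 31.8 after OHT treatment, again without overlap (log2 3.72 ± 0.64, adjusted p = 1.7e-05).

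*Six3os1* (chr17:85607358-85618396, minus strand), beside the eye and forebrain regulator *Six3*, had 5.96, 0 and 6.76 in the untreated libraries and 124, 114 and 87.2 after OHT treatment of PRC1CKO cells (log2 4.84 ± 0.57, adjusted p = 1.5e-09). Its OHT levels in PRC1CPM cells were lower, 56, 24.7 and 26.3 against 7.67, 4.71 and 10.8 untreated (log2 2.03 ± 0.57, adjusted p = 0.0087), all above the untreated libraries, and the call was lost without PRC1CPM_OHT replicate 1, with no filter on low counts or with a pseudocount of 0.1. *Six3* reached 178, 146 and 145 in PRC1CKO and 90.7, 52.6 and 50.4 in PRC1CPM cells from at most 7.67 in any untreated library. *Nkx2-2os* (chr2:147184083-147331681, plus strand), which overlaps the start of the ventral neural tube gene *Nkx2-2*, had 11.9, 4.62 and 5.07 in the untreated libraries and 124, 87 and 112 after OHT treatment of PRC1CKO cells and 5.11, 9.42 and 0 in the untreated libraries and 85.9, 37.1 and 28.5 after OHT treatment of PRC1CPM cells. It rose in both lines (log2 3.82 ± 0.58, adjusted p = 7e-07 and 3.53 ± 0.58, adjusted p = 7.2e-06). *Vax2os*, beside the ventral eye gene *Vax2*, had 8.94, 3.08 and 12.7 in the untreated libraries and 77.7, 106 and 96.8 after OHT treatment of PRC1CKO cells and 5.11, 9.42 and 5.42 in the untreated libraries and 29.9, 30.9 and 36.1 after OHT treatment of PRC1CPM cells, with log2 fold changes of 3.51 ± 0.50, adjusted p = 1.4e-07 and 2.16 ± 0.50, adjusted p = 0.0011. *Emx2os*, 55 bases from the start of the cortical and urogenital gene *Emx2*, had 8.94, 12.3 and 1.69 in the untreated libraries and 77.7, 66.6 and 68.9 after OHT treatment of PRC1CKO cells and 5.11, 5.65 and 8.13 in the untreated libraries and 64.7, 51 and 32.9 after OHT treatment of PRC1CPM cells. The groups did not overlap in either line (log2 3.34 ± 0.52, adjusted p = 1e-06 and 2.76 ± 0.52, adjusted p = 6.5e-05). *Lhx1os*, named here for its shared start region after its values were seen, rose by a log2 value of 2.99 ± 0.64, adjusted p = 0.00025 in PRC1CKO and 2.92 ± 0.64, adjusted p = 0.00052 in PRC1CPM cells.

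Both members beside forkhead genes rose, from untreated levels above 0 in every library. *Foxd2os* (chr4:114909289-114921118, plus strand) had 19.4, 6.93 and 10.1 in the untreated libraries and 169, 180.5 and 138 after OHT treatment of PRC1CKO cells and 10.2, 16 and 10.8 in the untreated libraries and 153, 94.3 and 112 after OHT treatment of PRC1CPM cells (log2 3.74 ± 0.42, adjusted p = 2.9e-10 and 3.17 ± 0.42, adjusted p = 5.7e-08). *Foxl2os* (chr9:98949155-98955310, minus strand), beside the ovarian regulator *Foxl2*, had 17.9, 10.8 and 16.9 in the untreated libraries and 300.1, 199.9 and 188 after OHT treatment of PRC1CKO cells and 43.5, 41.5 and 32.5 in the untreated libraries and 314, 160.1 and 214 after OHT treatment of PRC1CPM cells. Its untreated level in PRC1CPM cells lay above that in PRC1CKO cells in every library. The log2 fold changes were 3.83 ± 0.36, adjusted p = 2.9e-12 and 2.47 ± 0.36, adjusted p = 6e-07.

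Imprinted partners include *Igf2* and *Peg3*. *Peg3os* was too low to test, and *Peg3*, which encodes a zinc finger protein, was called in neither line (log2 0.10 and 0.04). *Igf2os* (chr7:142659693-142670356, plus strand, overlapping the start of the fetal growth factor gene *Igf2*) had 23.8, 13.9 and 3.38 in the untreated libraries and 243, 141 and 138 after OHT treatment of PRC1CKO cells and 33.2, 20.7 and 19 in the untreated libraries and 107, 70.4 and 48.2 after OHT treatment of PRC1CPM cells. It rose in both (log2 3.85 ± 0.46, adjusted p = 2.2e-09 and 1.56 ± 0.46, adjusted p = 0.013), the second call being lost with PRC1CPM_OHT replicate 1 or PRC1CPM_UNT replicate 3 left out or with no filter on low counts. *Igf2* had 2535, 797 and 611 in the untreated libraries and 7393, 3935 and 3413 after OHT treatment of PRC1CKO cells (log2 2.11 ± 0.35, adjusted p = 3.1e-06, lost with no filter). In PRC1CPM cells it had 3988, 1275 and 1263 in the untreated libraries and 6415, 2402 and 2514 after OHT treatment, where the groups overlapped and replicate 1 was the highest of each (log2 0.86 ± 0.35, adjusted p = 0.093). *Igf2* was called there without the gDNA-seq correction (1.16) and in 7 of the 12 fits that left out a library, with the largest value, 1.41, without PRC1CPM_UNT replicate 1. *Dio3os*, beside the thyroid hormone deiodinase gene *Dio3*, had 5.96, 1.54 and 8.46 in the untreated libraries and 52.4, 81.5 and 61.9 after OHT treatment of PRC1CKO cells and 5.11, 3.77 and 5.42 in the untreated libraries and 50.2, 26.3 and 50.4 after OHT treatment of PRC1CPM cells (log2 3.57 ± 0.53, adjusted p = 4.2e-07 and 2.86 ± 0.53, adjusted p = 5.3e-05).

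Of the other members named by size of change or by abundance, *Ptgs2os*, beside the cyclooxygenase gene *Ptgs2*, had 0, 6.16 and 0 in the untreated libraries and 19.9, 11.1 and 15.7 after OHT treatment of PRC1CKO cells and 0, 5.65 and 5.42 in the untreated libraries and 14.5, 6.19 and 13.1 after OHT treatment of PRC1CPM cells. It rose in PRC1CKO cells (log2 3.07 ± 0.77, adjusted p = 0.002) and missed the threshold in PRC1CPM cells (1.73 ± 0.77, adjusted p = 0.15). The first call was lost with no filter, and the second was gained without the gDNA-seq correction (1.94) or without PRC1CPM_UNT replicate 2 (2.20). *Kcnd3os*, at the start of the potassium channel gene *Kcnd3*, had no read in untreated PRC1CKO libraries and 10.8, 3.70 and 8.72 after OHT, at least 8.20-fold higher than the floor of 3 reads over the untreated group (adjusted p = 0.0063, lost without PRC1CKO_OHT replicate 1). In PRC1CPM cells it had 2.56, 0 and 0 in the untreated libraries and 11.6, 9.28 and 2.19 after OHT treatment, and the groups overlapped (log2 2.29 ± 0.85, adjusted p = 0.064). It passed there with edgeR (3.14), TMM (2.25), median-ratio scaling (2.25) and no gDNA-seq correction (2.44), and when PRC1CPM_OHT replicate 3, PRC1CPM_UNT replicate 1 (2.90 for each) or PRC1CKO_UNT replicate 1 (2.29) was left out. *Chd3os*, tail to tail with the NuRD remodeller gene *Chd3*, had 59.6, 52.3 and 49 in the untreated libraries and 136, 118 and 157 after OHT treatment of PRC1CKO cells and 56.3, 45.2 and 54.2 in the untreated libraries and 168, 85.8 and 166 after OHT treatment of PRC1CPM cells. It rose in both lines (log2 1.33 ± 0.34, adjusted p = 0.0028 and 1.36 ± 0.34, adjusted p = 0.0032), and *Chd3* was called in neither (0.39 ± 0.23, adjusted p = 0.3 and 0.37 ± 0.23, adjusted p = 0.4).

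The other members that rose in PRC1CKO cells are named so that every call is accounted for. *Wt1os*, 19 bases from the start of the kidney and gonad regulator *Wt1*, had 23.8, 21.5 and 22 in the untreated libraries and 145, 133 and 141 after OHT treatment of PRC1CKO cells and 15.3, 17.9 and 43.4 in the untreated libraries and 92.7, 80.4 and 82.2 after OHT treatment of PRC1CPM cells (log2 2.59 ± 0.39, adjusted p = 6.6e-07 and 1.84 ± 0.39, adjusted p = 0.00039). Beside germline genes, *Rbm46os* rose in both lines (log2 2.92 ± 0.48, adjusted p = 3.1e-06 and 1.88 ± 0.48, adjusted p = 0.0034), and so did the meiotic RNA-binding gene *Rbm46* (2.92 and 2.72). The call of *Rbm46os* in PRC1CPM cells was lost with no filter and without PRC1CPM_OHT replicate 1 (1.44) or PRC1CPM_UNT replicate 2 (1.28). *Ctcflos*, beside *Ctcfl*, the testis paralogue of the insulator protein gene *Ctcf*, rose in PRC1CKO cells (1.40 ± 0.37, adjusted p = 0.0031) and missed the threshold in PRC1CPM cells (0.92 ± 0.37, adjusted p = 0.092), where it passed with DESeq2, TMM, median-ratio scaling, no filter or no gDNA-seq correction (0.80 to 1.21) and without PRC1CKO_UNT replicate 1. *Crxos*, whose partner *Crx* encodes a photoreceptor homeobox factor, had 26.8, 16.2 and 22.8 in the untreated libraries and 74.1, 61.1 and 42.7 after OHT treatment of PRC1CKO cells (1.39 ± 0.42, adjusted p = 0.013), a call lost with no filter and without PRC1CKO_OHT replicate 1 (1.21) or PRC1CKO_UNT replicate 2 (1.19). *Crx* was near 0, with at most 6.57 normalised reads in any library, and was not tested. In PRC1CPM cells *Crxos* had 67.8, 22.6 and 75.9 in the untreated libraries and 76.3, 54.9 and 108 after OHT treatment, and the groups overlapped (0.64 ± 0.42, adjusted p = 0.43).

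**Figure D1:**
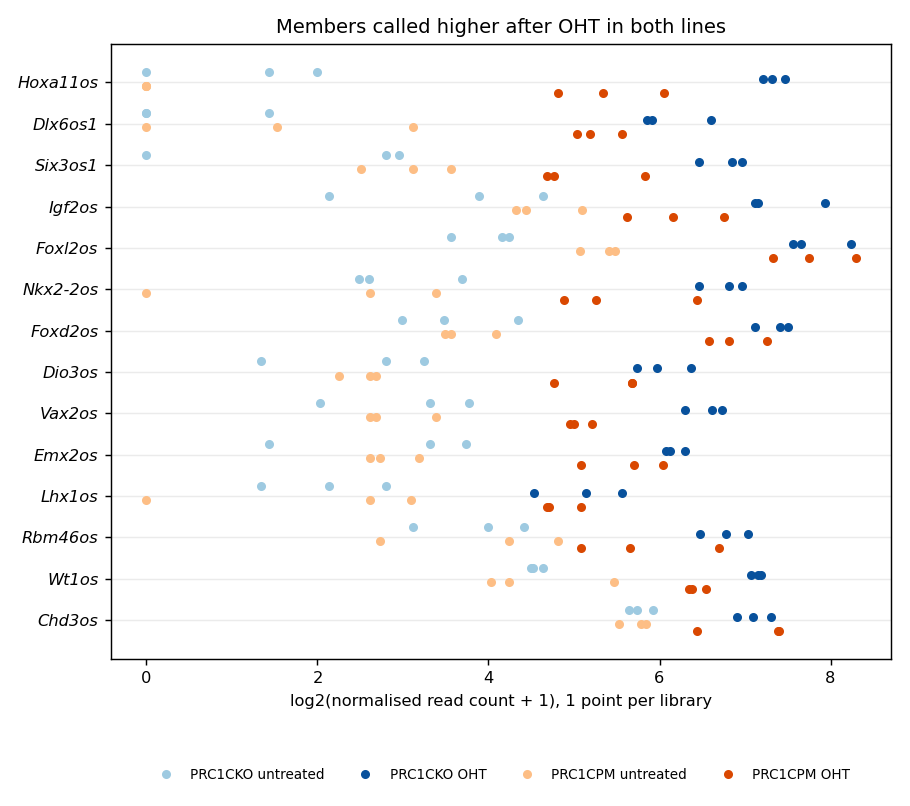
Level of the 14 opposite-strand members called higher after OHT in both lines, as log2(normalised read count + 1), with 1 point for each of the 12 libraries (light, untreated; dark, OHT; blue, PRC1CKO; orange, PRC1CPM). In each line the OHT libraries of every member shown lie above its untreated libraries.

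The second question was whether the response differed between loss of PRC1 and loss of its catalysis. Of the 68 members tested, 14 were called higher in both lines, as were 11.6% of all transcripts tested. The limit from the filter, which favours members that are high after OHT, applies here too. *Crxos*, *Ctcflos*, *Kcnd3os* and *Ptgs2os* were called in PRC1CKO cells alone, and *Hnf4aos* in PRC1CPM cells alone, and of these *Ctcflos*, *Kcnd3os* and *Ptgs2os* gained the PRC1CPM call under the settings named above. In the reported fit, which has no replicate block, no member was called in the interaction of line and treatment (adjusted p under 0.05 by limma), where 0.0236% of all transcripts were. In that fit 6 members had an unadjusted p under 0.05, beside 2.93% of all transcripts. edgeR and DESeq2 also called none. The lowest unadjusted p belonged to *Igf2os*, with an interaction of -2.29 ± 0.65 (log2, PRC1CPM minus PRC1CKO) and an adjusted p of 0.51, followed by *Six3os1* with -2.81 ± 0.81 and 0.51. *Igf2os* was called in the interaction without PRC1CKO_UNT replicate 1 (-2.83, adjusted p = 0.029). *Bcas3os1*, with at most 4 reads in 1 library and outside the reported fit, was called by limma with no filter on low counts (-2.25, adjusted p = 0.0062). A replicate block also called members and partners, named in the closing section. The members called in 1 line alone are not shown to differ between the lines. The median interaction was -0.21 over the tested members and -0.018 over all transcripts, and that of the members turned sign without the gDNA-seq correction (0.21, beside 0.43 over all transcripts). With 1 library left out it ranged from -0.40 (PRC1CKO_UNT replicate 1) to -0.049 (PRC1CKO_UNT replicate 2) over the members. Among partners none was called in the interaction by limma, edgeR or DESeq2, with 7 at an unadjusted p under 0.05 and the value of *Hoxa11* at -3.71 ± 0.92 (adjusted p = 0.23). Leaving out 1 library called *Hoxa11* (-4.33, adjusted p = 0.013) and *Igf2* (-1.52, adjusted p = 0.013) without PRC1CPM_UNT replicate 2, *Pax6* (-2.25, adjusted p = 0.035) without PRC1CKO_UNT replicate 1 and *Hoxd3* (-2.77, adjusted p = 0.041) without PRC1CKO_UNT replicate 2.

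Each member was then set against its coding partner in the 66 pairs in which both were tested. In PRC1CKO cells both were higher in 16 pairs, the partner alone in 3 (*Gad1os*, *Kcnmb4os2* and *Pax6os1*), the member alone in 1 (*Chd3os*) and neither in 43. The member was lower in 1 pair (*Rsf1os1*) and the partner lower in 2 (*Atcayos* and *Otx2os1*), and in none were they called in opposite directions. In PRC1CPM cells both were higher in 12 pairs and the partner alone in 5 (*Ctcflos*, *Kcnd3os*, *Pax6os1*, *Ptgs2os* and *Tbx3os2*). The member alone was higher there in 3 (*Chd3os*, *Hnf4aos* and *Igf2os*), the partner lower in 1 (*Otx2os1*) and neither called in 45. The place of *Igf2os* in this count moves with the call of *Igf2* given above, and *Lhx1*, counted as higher there, lost its call with DESeq2, TMM, median-ratio scaling, no filter or a pseudocount of 0.1 and without PRC1CPM_OHT replicate 1 or PRC1CPM_UNT replicate 3. Also counted there, *Vax2* lost its call with no filter and without PRC1CPM_OHT replicate 1, PRC1CPM_OHT replicate 3 or PRC1CPM_UNT replicate 2, and *Foxl2* with no filter and without PRC1CPM_OHT replicate 1. In PRC1CKO cells the calls of *Foxl2* and *Igf2* were lost with no filter, and that of *Foxl2* also without PRC1CKO_UNT replicate 3. Of the partners higher alone in PRC1CPM cells, *Ctcfl* lost its call without PRC1CPM_OHT replicate 1, PRC1CPM_OHT replicate 3, PRC1CPM_UNT replicate 1 or PRC1CPM_UNT replicate 2 (0.70 to 0.79). *Ptgs2* lost its call there without PRC1CPM_UNT replicate 3 (1.15). Across the 66 pairs the log2 fold changes of member and partner had a Pearson r of 0.88 (Spearman 0.66) in PRC1CKO and 0.77 (0.58) in PRC1CPM cells. Points of 1 line share the same 6 libraries and their scaling, and genes are not independent replicates. The signed log2 fold change of the member lay above that of the partner in 26 pairs in PRC1CKO and in 25 in PRC1CPM cells.

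**Figure D2:**
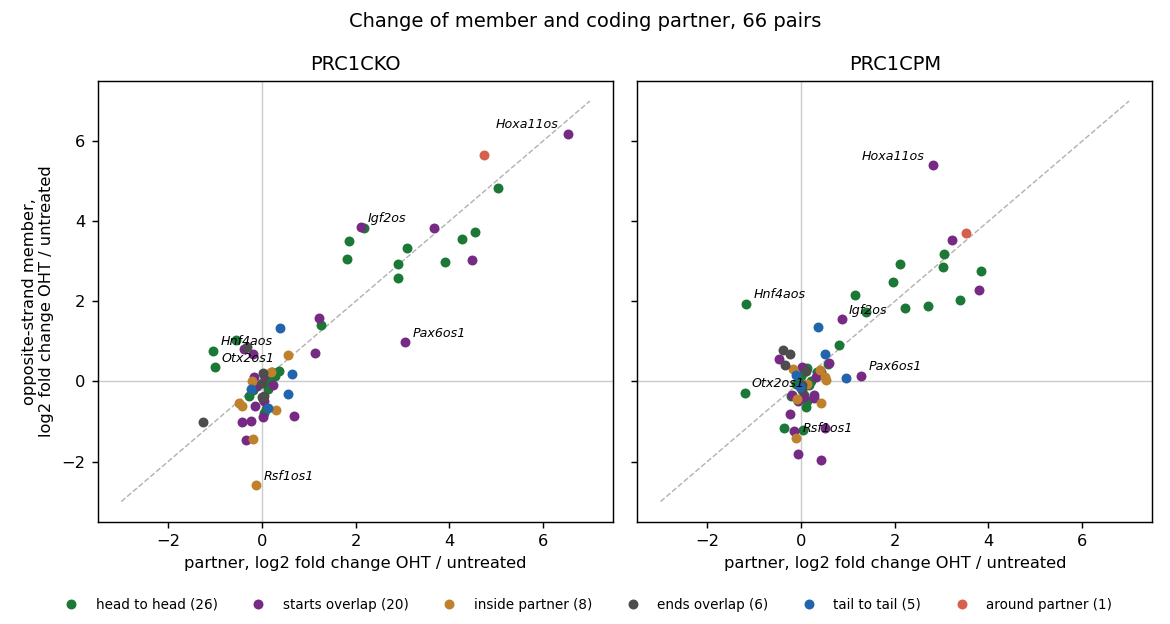
Log2 fold change of the member (vertical axis) against that of its coding partner (horizontal axis) after OHT in PRC1CKO (left) and PRC1CPM cells (right), 1 point per pair, coloured by the position of the 2 gene bodies, with the number of pairs in parentheses and a dashed line of equal change. Pairs in which both rose lie in the upper right, on both sides of the dashed line, with member-minus-partner differences from -1.46 (*Kcnd3os*) to 1.74 (*Igf2os*) in PRC1CKO and from -1.37 (*Six3os1*) to 2.58 (*Hoxa11os*) in PRC1CPM cells. The values of *Kcnd3os* in PRC1CKO and *Hoxa11os* in PRC1CPM cells are over untreated groups without a read and rest on the pseudocount.

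To see whether the balance within a pair moved, the ratio of member to partner per kb of gene body was taken in each library. With 3 libraries against 3, an exact permutation test cannot give a two-sided p below 0.1, and the ratios are given as a description with no other test. Over the 66 pairs the ratio was higher after OHT without overlap in 10, lower in 9 and overlapping in 47 in PRC1CKO cells, and 5, 8 and 53 in PRC1CPM cells. Among the 16 pairs in which both rose in PRC1CKO cells, the ratio overlapped between untreated and OHT libraries in 12, was higher after OHT in 3 and lower in 1. *Igf2os* against *Igf2* was one of the 3, with log2 ratios of -6.73, -5.80 and -7.18 untreated and -4.98, -4.85 and -4.67 after OHT. *Foxl2os* against *Foxl2* went from -1.29, -0.72 and 1.05 to 1.18, 1.30 and 1.51, and *Vax2os* against *Vax2* from -1.04, -1.39 and -0.69 to 0.34, 1.05 and 0.47. In PRC1CPM cells the same 3 ratios overlapped between the groups. The ratio that fell was that of *Kcnd3os* to *Kcnd3*, in which the member had no untreated read and the ratio rests on the pseudocount. *Hoxa11os* against *Hoxa11* has no informative ratio in untreated PRC1CKO cells, where *Hoxa11* had no read. It separated in PRC1CPM cells, from -2.12, -0.29 and -2.18 to 1.36, 0.96 and 0.84, again over no member read in the untreated libraries. Of the same 16 pairs, the other that separated in PRC1CPM cells was *Six3os1* against *Six3*, which fell from -1.04, -1.26 and 0.63 to -1.73, -2.10 and -1.96. Both genes had only a few reads in the untreated libraries, so those ratios carry a large counting error and lean on the pseudocount. Most members were below the partner per kb after OHT, in 57 of the 66 pairs in PRC1CKO and 58 in PRC1CPM cells.

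In a few pairs the member and the partner differed in call or in the size of the change. *Pax6*, the eye and forebrain regulator, had 50.6, 27.7 and 11.8 in the untreated libraries and 206, 226 and 234 after OHT treatment of PRC1CKO cells (log2 3.06 ± 0.39, adjusted p = 8.2e-09), while *Pax6os1*, which overlaps its start and runs over 134 kb, had 8.94, 1.54 and 2.54 in the untreated libraries and 10.8, 8.33 and 5.23 after OHT treatment (0.98 ± 0.66, adjusted p = 0.37). The member-minus-partner difference in log2 fold change was -2.08, and the log2 ratio fell from a mean of -4.82 to -6.89 with no overlap. In PRC1CPM cells the difference was -1.15 and the ratio overlapped between the groups, and the call of *Pax6* there (1.28) was lost with no filter and without PRC1CPM_UNT replicate 1. *Hnf4aos*, head to head with the liver and endoderm nuclear receptor gene *Hnf4a*, had 5.11, 9.42 and 13.6 in the untreated libraries and 35.7, 21.6 and 62.4 after OHT treatment of PRC1CPM cells and was called there (1.94 ± 0.52, adjusted p = 0.005), a call lost without PRC1CPM_OHT replicate 3. *Hnf4a* had 81.8, 70.7 and 73.2 in the untreated libraries and 38.6, 30.2 and 30.7 after OHT treatment of the same cells, all OHT libraries below the untreated ones, but missed the threshold (-1.16 ± 0.43, adjusted p = 0.058). It was called lower in PRC1CPM cells with edgeR (-1.18), DESeq2 (-1.18), TMM (-1.27), median-ratio scaling (-1.27) or no filter and without PRC1CKO_UNT replicate 1, and *Hnf4aos* and *Hnf4a* were then called in opposite directions. In PRC1CKO cells *Hnf4aos* had 23.8, 10.0 and 15.2 in the untreated libraries and 28.9, 38.9 and 17.4 after OHT treatment, with overlap (0.77 ± 0.52, adjusted p = 0.37), and *Hnf4a* had 32.8, 29.2 and 32.1 in the untreated libraries and 21.7, 16.7 and 8.72 after OHT treatment without overlap (-1.04 ± 0.43, adjusted p = 0.083, called with TMM, median-ratio scaling or no filter). The ratio of *Hnf4aos* to *Hnf4a* was higher after OHT in every library of both lines, with means of -1.88 and -0.07 in PRC1CKO and -3.86 and -0.75 in PRC1CPM cells. *Otx2*, the head regulator, fell in both lines (log2 -1.01 ± 0.26, adjusted p = 0.0033, lost without PRC1CKO_OHT replicate 2, and -1.20 ± 0.26, adjusted p = 0.00059), whereas *Otx2os1* was called in neither (0.35 ± 0.28, adjusted p = 0.49 and -0.28 ± 0.28, adjusted p = 0.68). The ratio of *Otx2os1* to *Otx2* was higher after OHT without overlap in PRC1CKO cells and overlapped in PRC1CPM cells.

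*Rsf1os1*, which lies inside the remodelling factor gene *Rsf1* with no exon in common (chr7:97598349-97645112, minus strand), was the one member called lower. It had 26.8, 13.1 and 11 in the untreated libraries and 3.62, 3.70 and 0 after OHT treatment of PRC1CKO cells, the OHT values being 4, 4 and 0 reads (log2 -2.59 ± 0.65, adjusted p = 0.0021), and the call was lost without PRC1CKO_OHT replicate 3. In PRC1CPM cells it had 19.2, 11.3 and 32.5 in the untreated libraries and 6.76, 3.87 and 11 after OHT treatment, all OHT libraries below the untreated ones, with -1.40 ± 0.65, adjusted p = 0.17. *Rsf1* was not called in either line (-0.12 ± 0.20, adjusted p = 0.78 and -0.11 ± 0.20, adjusted p = 0.87). *Slfn5os*, overlapping the Schlafen gene *Slfn5*, had 23, 20.7 and 19 in the untreated libraries and 9.65, 6.19 and 11 after OHT treatment of PRC1CPM cells (-1.17 ± 0.55, adjusted p = 0.18), beside 0.50 ± 0.37, adjusted p = 0.51 for *Slfn5*, and its ratio to *Slfn5* fell without overlap in both lines. Its change passed the threshold in PRC1CPM cells with TMM or median-ratio scaling. *Plet1os*, beside the placental gene *Plet1*, had 15.3, 17 and 12.2 in the untreated libraries and 5.79, 0 and 8.76 after OHT treatment of PRC1CPM cells (-1.96 ± 0.77, adjusted p = 0.085, against 0.43 for *Plet1*), and was called lower without PRC1CPM_OHT replicate 3 (-2.59), PRC1CKO_OHT replicate 1 or PRC1CKO_UNT replicate 2 (-1.96 for both). *Ppp1r3fos*, beside the phosphatase subunit gene *Ppp1r3f*, had 16.6, 9.42 and 10.8 in the untreated libraries and 3.86, 9.28 and 0 after OHT treatment of the same cells (-1.81 ± 0.77, adjusted p = 0.12, against -0.08). For both members all OHT libraries lay below the untreated ones, at levels near the limit of 10 reads.

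**Figure D3:**
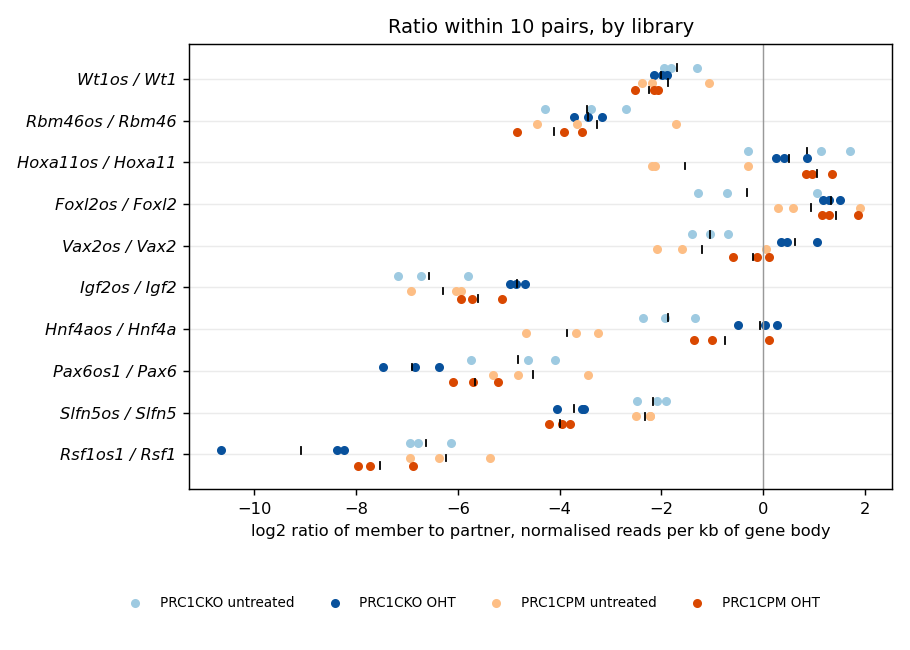
Log2 ratio of member to partner in normalised reads per kb of gene body (horizontal axis) for 10 pairs, with 1 point per library and a black tick at the mean of each condition (blue, PRC1CKO; orange, PRC1CPM; dark, OHT). The ratios of *Wt1os* and *Rbm46os* overlap between untreated and OHT libraries, those of *Hnf4aos* are higher after OHT in both lines, and those of *Slfn5os* are lower.

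The pairs were then grouped by position in the deposited table (mm10). In 33 pairs the genes lay head to head without overlap, with a median of 250 bases between start sites, and 27 of these members were tested. In 28 pairs the starts overlapped (median 1170 bases apart, 20 tested), and in 41 the member lay inside the partner (median 51153 bases from its start, 8 tested). The ends overlapped in 12 pairs (6 tested), 8 were tail to tail (5 tested), and in 2 the member contained the partner (1 tested). In PRC1CKO cells 12 of the 27 tested head-to-head members rose (44.4%) and 4 of the 20 with overlapping starts (20%), beside 16.5% of all transcripts tested, as did *Chd3os* among the tail-to-tail members and *Dlx6os1* around its partner. None of the 8 inside the partner and none of the 6 with overlapping ends were called higher by limma, edgeR or DESeq2, or had an unadjusted p under 0.05 for an increase. In PRC1CPM cells, beside 13.1% of all transcripts, 10 head-to-head members rose, 3 with overlapping starts, 1 tail to tail and 1 around its partner, and again none inside the partner or with overlapping ends by any of the 3 tools or at an unadjusted p under 0.05. Median log2 changes in PRC1CKO cells were 0.77 for head-to-head members, 0.15 for those with overlapping starts, -0.20 for overlapping ends and -0.57 for members inside the partner. In PRC1CPM cells they followed another order, with 0.43, -0.12, 0.34 and -0.016. Classes of 6 or 8 members are too small to set a count of 0 against the share of all transcripts. The filter also favours members that are high after OHT, so the class shares cannot be set evenly against those of all transcripts. Of the 19 members called higher in either line, 10 would not have passed on the untreated libraries alone, against 5.51% of all transcripts tested. The 32 tested members that start within 1000 bases of the partner gave 10 higher calls in PRC1CKO cells and the 35 farther away gave 8.

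**Figure D4:**
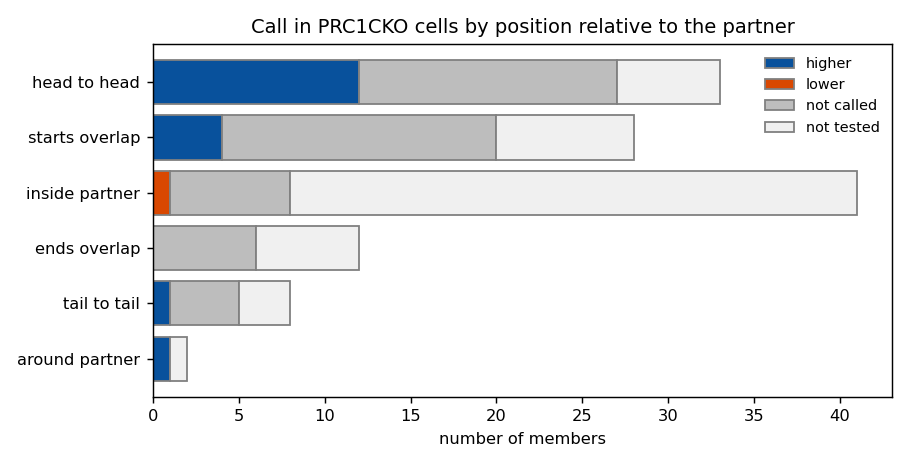
Number of members (horizontal axis) in each position relative to the coding partner, divided by the call after OHT in PRC1CKO cells. Of 33 head-to-head members 12 were higher, and of 41 members inside the partner 33 were not tested and 1 was lower.

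Reads from overlapping genes on opposite strands can be mixed if strand is not used in counting. The library kit was directional, while the strand setting of the count is not given in the sources used here, so the table was examined. Over all transcripts, 511 lay wholly inside another on the opposite strand, and the inner one had more reads than the outer in 66 (12.9%), which a count without strand cannot give. In 244 of 385 such pairs with enough outer reads (63.4%) the inner transcript had under 0.1 of the outer level per kb, against 6 of 194 (3.09%) for pairs on the same strand. The members with no overlap with the partner are the head-to-head (27 tested) and tail-to-tail ones (5 tested). Restricting the members to these left 13 higher in PRC1CKO and 11 in PRC1CPM cells, beside 16.5% and 13.1% of all transcripts tested. These counts carry the same limit from the filter on reads.

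Of the 57 members below the limit, 7 had no read in any library and none had more than 23 in 1 library. These members had 51 distinct tested partners, of which 21 (41.2%) were higher in PRC1CKO and 16 (31.4%) in PRC1CPM cells, beside 32.7% and 27.4% of all partners tested and 16.5% and 13.1% of all transcripts. Examples of members below the limit beside partners that rose were chosen after their values were seen. *Nell1os*, inside the gene of the secreted protein NELL1, had 35 reads over the 12 libraries and at most 6 in 1, while *Nell1* rose by 3.72 and 3.45 (log2, PRC1CKO and PRC1CPM). *Msx1os* had 2 reads in all beside the homeobox gene *Msx1*, which rose by 3.16 and 1.94. *Hoxd3os1* had 39 reads, at most 10 in 1 library, and *Hoxd3* rose by 5.10 and 2.92. These members did not enter the fit, and their change was not tested.

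The most abundant members per kb of gene body over all libraries were *Rab26os*, *Nphs1os*, *Minos1*, *Rab10os* and *Chd3os*, and only *Chd3os* among these 5 was called. *Rab26os*, a transcript of 0.494 kb tail to tail with the vesicle GTPase gene *Rab26*, had 358 ± 76.4, 308 ± 34.4, 319.7 ± 35.5 and 374 ± 123 normalised reads per kb in untreated and OHT-treated PRC1CKO and untreated and OHT-treated PRC1CPM cells (mean ± SD, n = 3, in this order below). *Nphs1os*, inside the nephrin gene *Nphs1*, had 61.2 ± 3.59, 40.7 ± 9.29, 70.7 ± 10.1 and 70.5 ± 24.9. Its log2 fold change in PRC1CKO cells was -0.61 ± 0.30, adjusted p = 0.17, and that of *Nphs1* -0.43 ± 0.24, adjusted p = 0.25. *Minos1* had 50.2 ± 9.23, 57.3 ± 4.20, 56.6 ± 9.53 and 58.8 ± 14.4. *Rab10os*, which overlaps the end of the trafficking GTPase gene *Rab10*, had 48.6 ± 8.19, 47.2 ± 3.82, 62.7 ± 6.28 and 58.8 ± 5.38. In these 4 transcripts the differences between OHT and untreated cells missed the threshold in both lines, but *Nphs1os* passed it in PRC1CKO cells, as lower, with TMM or median-ratio scaling (-0.73 for both).

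Sequence at the start sites was compared last. A RefSeq window at the start given in the table was matched for 93 of the 125 members and 79 of the 119 partners. The median number of CG dinucleotides in 300 bases was 7 over the 32817 windows, 8 for members and 20 for partners. At least 15 were present in 34.6% of all windows, 31.2% of member windows and 67.1% of partner windows. Members that were not tested had a median of 4.5 (46 matched), tested members that were not called higher 18 (34 matched) and members called higher in either line 16 (13 matched, range 2 to 53). Partners called higher in PRC1CKO cells had a median of 25.5 (24 matched).

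**Figure D5:**
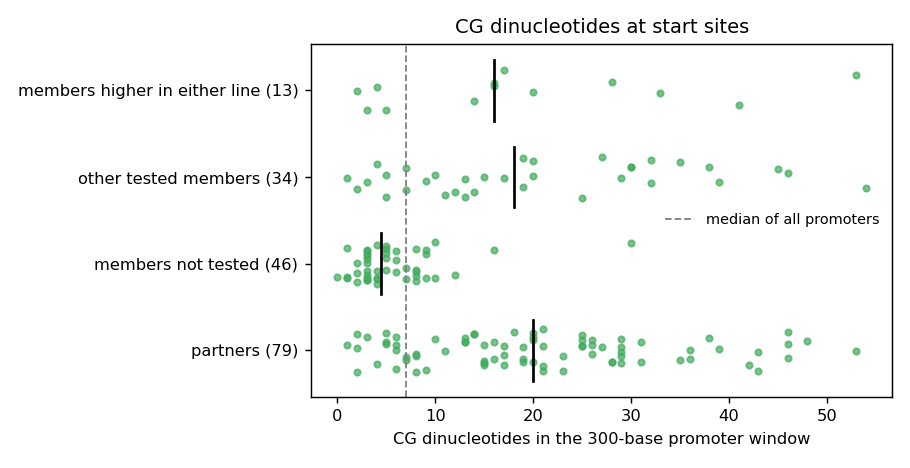
CG dinucleotides in the 300-base promoter window (horizontal axis) for members called higher in either line, other tested members, members not tested and partners, with 1 point per transcript, the number matched in parentheses and a black bar at the median. The medians are 16, 18, 4.5 and 20, beside a dashed line at 7 for all promoters.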

How the data were processed

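The authors discarded reads from rDNA, aligned the others with STAR, and what it left with Bowtie2, to mm10 and dm6 joined together, removed duplicates and counted uniquely aligned reads over gene bodies, introns included. The authors' deposited table holds a normalised signal in every library, which is the read count of a transcript divided by a size factor from the *Drosophila* reads corrected by matched gDNA-seq. It also holds the authors' log2 fold changes and adjusted p-values, and a list of partially derepressed genes was deposited, none of which were used. All values (100%) were whole multiples of 1 read within 0.02. For a group without a read, 3 reads over its 3 libraries together were taken as the floor, and intervals cover counting error only.

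A transcript entered the fit when 3 or more of the 12 libraries had 10 or more of its reads, and was modelled as log2(normalised signal + 1), pseudocount 1, with limma 3.58.1 in R 4.3.3, with 1 mean per condition, no block, moderation with a trend and Benjamini-Hochberg adjustment over all 16940. The interaction was called at an adjusted p under 0.05 alone. The fit was also run on simulated data, and the outcome is not reported here. Alternatives were edgeR 4.0.16, DESeq2 1.42.0, other scalings, filters, pseudocounts, a replicate block and each library left out. Python 3.11.15 with pandas 2.3.3, numpy 2.4.6, scipy 1.17.1 and matplotlib 3.10.9 made summaries and plots.

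Members, lists and tests were chosen with earlier results of these data known. Named members were the 12 called in PRC1CKO cells with the largest change, up to 5 called in PRC1CPM cells alone, all called lower or in the interaction, all pairs called in opposite directions, the 5 pairs per line with the largest difference of member and partner, and the 5 most abundant per kb. Others are said to be chosen after their values were seen, and so are *Wt1os*, *Rbm46os*, *Ctcflos*, *Crxos* and *Otx2os1*. Table starts count from 0 and were raised by 1. Promoter windows are from RefSeq (GRCm38.p6). The gDNA-seq samples (12) were not analysed here as measurements.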

Additional observations from a re-analysis of the deposited data

How the results depend on the processing

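The counts of members and partners called higher in each line stayed within 1.5 times of the reported ones in all alternatives run, with 12 to 17 members in PRC1CPM and 16 to 19 in PRC1CKO cells when 1 library was left out. All 14 members called higher in both lines kept both calls with edgeR, DESeq2, TMM, median-ratio scaling and no gDNA-seq correction, and in PRC1CPM cells 11 kept it with no filter, 13 with a pseudocount of 0.1 and 11 to 14 with 1 library left out. Small counts moved. Members lower in PRC1CKO cells numbered 2 with edgeR, DESeq2, no filter or no gDNA-seq correction, 4 with TMM or median-ratio scaling, 0 among members without overlap with the partner, and 0 to 2 with 1 library left out. Members lower in PRC1CPM cells numbered 2 with TMM or median-ratio scaling, 1 with no filter, and 0 to 1 with 1 library left out. Partners lower in PRC1CKO cells numbered 7 with TMM or median-ratio scaling and 2 to 4 with 1 library left out, and in PRC1CPM cells 2 with edgeR, DESeq2, TMM, median-ratio scaling or no filter and 1 to 2 with 1 library left out. The interaction called 1 member with no filter, 0 to 1 members and 0 to 2 partners with 1 library left out, and over all transcripts 4 in the reported fit, 15 with DESeq2, 14 with TMM, 13 with median-ratio scaling, 1 with a pseudocount of 0.1 and 1 to 28 with 1 library left out. The median log2 change of all transcripts in PRC1CPM cells was 0.10, and 0.39 without the gDNA-seq correction. The causes were not tested. Transcripts near 10 reads carry a large counting error, and no sample of either line was given OHT without an inducible allele.

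Replicate numbers were not treated as pairing the samples. Deviations of same-numbered libraries from their group means correlated at 0.0988 to 0.438 in 18 pairs (17 over 0.1). The 36 pairs with different numbers correlated at -0.26 to 0.0275, with none over 0.1. All libraries, 12 of 12, correlated best with their own number, which comes from the data and not from the design. With the replicate block 20 members were higher in PRC1CKO and 16 in PRC1CPM cells, 4 and 2 were lower, and 3 were called in the interaction (*Igf2os*, *Six3os1* and *Foxl2os*, all smaller in PRC1CPM cells), with 5 and 2 partners lower and 6 in the interaction (*Igf2*, *Pax6*, *Hoxa11*, *Hoxd3*, *Dio3* and *Has2*), which called 324 of all transcripts. The block also called *Hnf4a* lower in both lines, *Plet1os* and *Ppp1r3fos* lower and *Igf2* and *Ctcflos* higher in PRC1CPM cells, and *Nphs1os* lower in PRC1CKO cells. None of the members called in 1 line alone was among the 3 called in the interaction. That no member was called in the interaction of the reported fit thus depends on leaving the block out. The shares of all transcripts called higher or lower in each line, given above, are from the fit without a block.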
